A study of Homo sapiens with 6 samples.

Results

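Expression of 8 genes of the lysosome and of its supply by autophagy was followed in SKOV3 cells: the membrane proteins LAMP1, LAMP2, LAMP3, CD68 and MCOLN1, the glycosidases NEU1 and HEXA, and the autophagy receptor SQSTM1, which is neither a lysosomal membrane protein nor a glycosidase. They were taken by symbol from the platform annotation, and all 8 of 8 were among the 14884 genes measured, each with 1 probe set. SKOV3 is an established human ovarian cancer cell line. The control cells grew for 11 days on attachment plates (2D, n = 3 arrays), and the other cells for 11 days on low-attachment plates with FP001 at 0.015% (w/v) (3D, n = 3 arrays). FP001 is known here only by its code name, and the control medium received water in its place. All cells were grown in McCoy's 5A medium with 15% serum in 96-well plates and carried no stated genetic change. Because the 3D cells differed in both plate and additive, the effects of these cannot be told apart. The labels do not say whether a group's samples came from separate cultures, and the p-values then measure no more than the spread between these 6 samples, possibly technical.

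Lysosomes are acidic organelles in which hydrolases break down material delivered by endocytosis and by autophagy. LAMP1 and LAMP2 are heavily glycosylated proteins that make up much of the lysosomal membrane, and CD68 and LAMP3 are related proteins best known from macrophages and from mature dendritic cells. Many lysosomal genes carry an E-box known as the CLEAR element near their start sites, which is bound by TFEB, TFE3 and MITF, the factors that adjust lysosome number to nutrient supply.

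The arrays separated by culture. Across genes, pairs of 2D arrays correlated at 0.991 to 0.993, pairs of 3D arrays at 0.988 to 0.995 and pairs from different groups at 0.975 to 0.982. 3D replicate 1 stood apart from the other 3D arrays, which correlated with each other at 0.995 and with it at 0.988, so the members' values and the counts are also given without it. Of the epithelial and ovarian markers listed for SKOV3, 6 of 9 were measured, of which 2 rose, 1 fell and 3 did not pass (limma). By the same test 5.23% of all genes rose and 4.77% fell. EPCAM (8.20 in 2D and 9.96 in 3D) and KRT19 (7.26 and 9.96) rose and KRT7 fell (6.07 and 5.13), whereas KRT18 (9.61 and 10.06), KRT8 (5.66 and 5.82) and WT1 (5.25 and 5.20) did not pass. Without 3D replicate 1, 3 of these markers rose and 1 fell, where 7.36% of all genes rose and 5.4% fell. In bulk RNA, fewer cells of a type and less RNA per cell cannot be told apart.

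Promoter sequence is shown first because the E-box bears on how these genes are usually grouped. RefSeq promoter windows (GRCh38.p14, 250 bases before to 50 bases after an annotated gene start) were matched for 5 of the 8 members, LAMP1, CD68, NEU1, MCOLN1 and SQSTM1, the last with 3 windows. The E-box core CACGTG, which reads the same on both strands, was found in 7.26% of 35116 such windows. Its extended form TCACGTGA, which contains the core and is also a palindrome, was found in 0.98%. The first 260 bases of each window are printed 5′ to 3′ on the gene's own strand, with each core in capitals, for the members that rose (CD68 and NEU1), the member nearest to the threshold (MCOLN1) and the member with the most cores (LAMP1). They lie at chr13:113296989-113297248 (plus strand, LAMP1), chr6:31862812-31863071 (minus strand, NEU1), chr19:7522374-7522633 (plus strand, MCOLN1) and chr17:7579388-7579647 (plus strand, CD68).
LAMP1: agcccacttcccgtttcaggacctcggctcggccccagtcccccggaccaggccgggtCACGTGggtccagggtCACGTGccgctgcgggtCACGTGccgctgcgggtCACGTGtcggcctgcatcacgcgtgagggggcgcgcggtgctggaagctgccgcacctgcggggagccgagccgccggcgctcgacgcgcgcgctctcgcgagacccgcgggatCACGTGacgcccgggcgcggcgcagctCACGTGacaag
NEU1: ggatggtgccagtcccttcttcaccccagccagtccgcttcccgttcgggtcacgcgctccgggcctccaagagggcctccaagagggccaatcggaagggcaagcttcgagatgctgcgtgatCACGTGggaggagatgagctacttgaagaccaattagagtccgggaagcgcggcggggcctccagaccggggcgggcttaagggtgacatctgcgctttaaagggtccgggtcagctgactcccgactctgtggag
MCOLN1: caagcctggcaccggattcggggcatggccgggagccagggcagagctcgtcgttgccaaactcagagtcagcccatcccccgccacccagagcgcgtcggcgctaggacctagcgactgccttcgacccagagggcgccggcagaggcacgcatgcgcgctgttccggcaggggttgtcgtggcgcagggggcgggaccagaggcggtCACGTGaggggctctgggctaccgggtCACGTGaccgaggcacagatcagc
CD68: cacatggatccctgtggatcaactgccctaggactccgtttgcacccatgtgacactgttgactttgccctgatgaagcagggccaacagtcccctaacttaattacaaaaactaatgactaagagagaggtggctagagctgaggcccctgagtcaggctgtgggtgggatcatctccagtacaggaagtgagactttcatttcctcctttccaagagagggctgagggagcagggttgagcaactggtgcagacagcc

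The LAMP1 window held 6 cores, the highest number in any of the 35116 windows, and was the only one with 5 or more. Counted from the gene start, with -1 as the last base before it, they began at -192, -176, -159, -142, -28 and -1. The core at -28 and the one at -1 were in the form TCACGTGA. MCOLN1 held 2 cores, at -41 and -14, both within TCACGTGA, whereas NEU1 held 1 core, at -126. The CD68 window and the 3 SQSTM1 windows held none, which says only that these letters are not in these windows. The antioxidant response element TGACNNNGC, searched on both strands because SQSTM1 is known as a target of NRF2, was found in 13.3% of all windows, once each in those of LAMP1 and CD68 and in none of the 3 SQSTM1 windows.

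**Figure D1:**
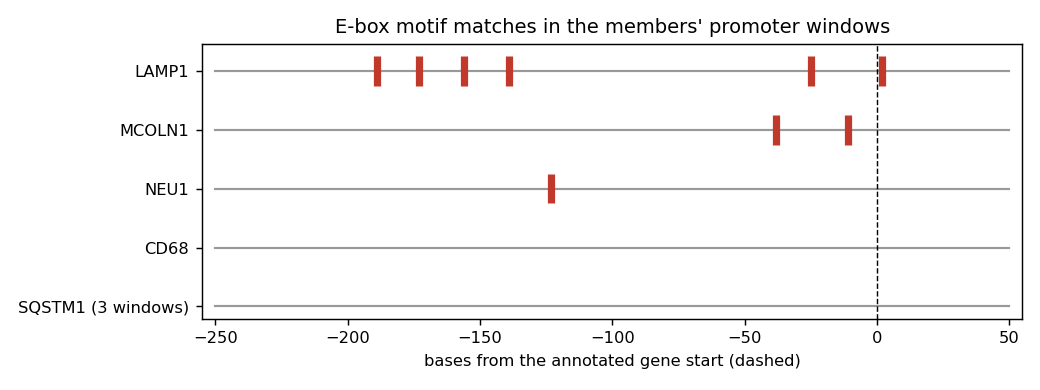
Position of each E-box core (red bar, 6 bases) in the promoter windows of the 5 matched members, in bases from the annotated gene start (dashed line). LAMP1 shows 6 cores, MCOLN1 2 and NEU1 1, and CD68 and SQSTM1 show none.

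The comparison asked how expression of these genes differs between 3D and 2D culture. CD68 and NEU1 rose in 3D, by 1.61-fold and 1.51-fold, and 0 of 8 members fell by limma. The other 6 members did not pass. Values are log2 RMA values, in which 1 unit is a doubling, and changes are 3D minus 2D. A gene passed at an adjusted p under 0.05 (limma, Benjamini-Hochberg over all genes), which 5.23% of all genes did upwards and 4.77% downwards. At an unadjusted p under 0.05, 4 members were higher and 1 was lower, against 11.5% and 11.9% of all genes. The per-gene test with unequal variances passed 0 members. Over all genes it passed only 82, against 1488 by limma, so its 0 of 8 says little about these members in particular. For all 8 members the 2D and 3D arrays did not overlap, with 7 members higher in 3D, and such separation held for 29.2% of all genes (13.8% higher in 3D and 15.3% lower). The median change of the members was 0.25, against -0.0074 for all genes, and the median absolute change was 0.33 against 0.15. The members were chosen with earlier results of these data known, so these counts are a description. Without 3D replicate 1, 2 members rose and 0 fell, with a median of 0.22, where 7.36% of all genes rose and 5.4% fell.

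**Figure D2:**
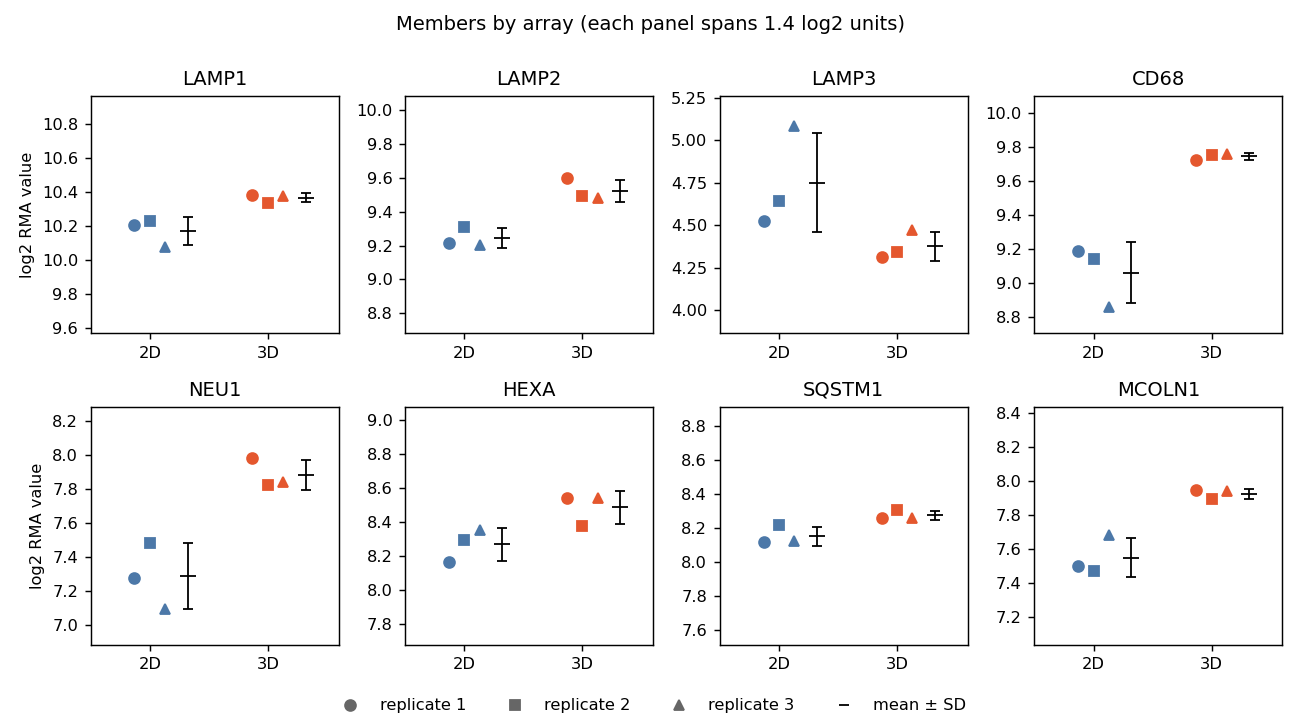
Log2 RMA value of each member on each array, by culture; symbols mark the replicate number, bars are the mean ± SD (n = 3), and every panel spans the same range of log2 units. In each panel the 2D and 3D arrays do not overlap; CD68 runs from 8.86 to 9.19 in 2D and from 9.73 to 9.76 in 3D, and LAMP3 is the member that is lower in 3D.

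CD68 encodes macrosialin, a heavily glycosylated member of the LAMP family. It read 9.19, 9.14 and 8.86 in 2D replicates 1, 2 and 3 and 9.73, 9.75 and 9.76 in 3D replicates 1, 2 and 3. The 3D arrays lay close together and all above the 2D arrays, with a gap of 0.54 between the nearest arrays of the groups. The mean went from 9.06 ± 0.18 to 9.75 ± 0.019 (SD, n = 3), a change of 0.68 ± 0.11 (SE, limma adjusted p = 0.00871, 95% interval 0.42 to 0.95). The call held without any single array, with changes of 0.58 to 0.75 and adjusted p up to 0.0413. It was lost in the per-gene test with unequal variances (adjusted p = 0.189), which only 82 of all genes passed. In the RefSeq gene table the span of CD68 overlaps that of MPDU1-AS1, for which no value is given here, and whether the probes tell these transcripts apart is not known.

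CD68 is also a textbook macrophage marker, so other macrophage markers were read beside it. Of 12 listed markers 6 were measured, and 1 of these 6 rose, LAPTM5, which encodes a lysosomal protein of blood cells. By limma 5.23% of all genes rose and 4.77% fell. The defining markers CD14 (change -0.41), CSF1R (-0.38), TYROBP (-0.074) and CD163 (0.059, at a level of 2.65 in 2D and 2.71 in 3D) did not pass, nor did MSR1 (0.24 ± 0.10, adjusted p = 0.227). At an unadjusted p under 0.05 (limma), 1 marker was higher and 2 were lower, against 11.5% and 11.9% of all genes. The 2 were CD14 and CSF1R. Without 3D replicate 1, 1 marker rose and 1 fell by adjusted p, where 7.36% of all genes rose and 5.4% fell. The summed log2 level of the 6 markers ran from 28.8 to 29.4 on 2D arrays and from 30.2 to 31.5 on 3D arrays. Over the 5 markers without LAPTM5 it ran from 22.8 to 23.2 on 2D arrays and from 22.0 to 23.1 on 3D arrays, so the groups overlapped.

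NEU1 encodes the lysosomal sialidase, which removes terminal sialic acids from glycoproteins and glycolipids. It read 7.28, 7.48 and 7.09 in 2D replicates 1, 2 and 3 and 7.98, 7.82 and 7.84 in 3D replicates 1, 2 and 3. Every 3D array was above every 2D array, and 3D replicate 1 was the highest of all. The change was 0.60 ± 0.12 (SE, n = 3 per group, limma adjusted p = 0.0219, 95% interval 0.31 to 0.88), from 7.28 ± 0.19 to 7.88 ± 0.088 (SD). The call was lost without 2D replicate 1 (adjusted p = 0.0719), 2D replicate 3 (0.0696), 3D replicate 2 (0.0649) or 3D replicate 3 (0.0691), and held without 3D replicate 1 (0.55, adjusted p = 0.0421). It was also lost with every probe set tested singly (0.0885) and with unequal variances (0.182).

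The sialidase works in a complex with the carboxypeptidase CTSA, known as protective protein, which keeps it stable in the lysosome. CTSA read 10.16, 10.20 and 10.17 in 2D and 10.23, 10.18 and 10.26 in 3D, so its groups overlapped and its change was 0.044 ± 0.085 (SE, limma adjusted p = 0.825). The other human sialidase genes did not pass either. NEU3, encoding the plasma membrane sialidase, gave 0.37 ± 0.14 (adjusted p = 0.152), NEU4 gave -0.21 ± 0.096 (adjusted p = 0.249) and NEU2 gave 0.028 ± 0.22 (adjusted p = 0.964). The differences between NEU1 and these genes were not tested.

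HEXA encodes the alpha subunit of beta-hexosaminidase A, the enzyme that degrades GM2 ganglioside and is missing in Tay-Sachs disease. It read 8.16, 8.29 and 8.35 in 2D replicates 1, 2 and 3 and 8.54, 8.37 and 8.54 in 3D replicates 1, 2 and 3. The groups were separated only by 0.022, the distance between 2D replicate 3 and 3D replicate 2. The change was 0.22 ± 0.10 (SE, limma adjusted p = 0.25, 95% interval -0.018 to 0.45), so a rise of up to 0.45 lies within the interval. It was 0.19 without 3D replicate 1. GM2A, encoding the activator protein that presents the ganglioside to this enzyme, read 7.41, 7.56 and 7.39 in 2D and 7.71, 7.93 and 8.22 in 3D. Its arrays did not overlap, and its change of 0.50 ± 0.14 did not pass (adjusted p = 0.0682), whereas leaving out 3D replicate 1 brought it past the threshold (0.0221). GM2A passed in 4 of 15 alternative settings. PSAP, the precursor of the saposin activators, gave -0.082 ± 0.11 (adjusted p = 0.732).

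LAMP1 and LAMP2, the abundant structural glycoproteins of the membrane, were higher on every 3D array and did not pass. LAMP1 read 10.21, 10.23 and 10.08 in 2D and 10.39, 10.34 and 10.38 in 3D. Its change was 0.20 ± 0.091 (SE, n = 3 per group, limma adjusted p = 0.248, 95% interval -0.015 to 0.41), which is 1.15-fold, and 0.19 without 3D replicate 1. LAMP2, also known for chaperone-mediated autophagy, read 9.21, 9.31 and 9.21 in 2D and 9.60, 9.49 and 9.48 in 3D. 3D replicate 1 was its highest array, and the change was 0.28 ± 0.091 (adjusted p = 0.104, 95% interval 0.069 to 0.49), or 0.24 without that array. In order of E-box cores, the estimates were 0.20 for LAMP1 with 6, 0.38 for MCOLN1 with 2, 0.60 for NEU1 with 1, and 0.68 and 0.12 for CD68 and SQSTM1 with none, and no relation between cores and change was tested.

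LAMP3, the dendritic cell LAMP and a gene known to be induced by interferon, was the member that was lower in 3D. It read 4.53, 4.64 and 5.08 in 2D replicates 1, 2 and 3 and 4.31, 4.34 and 4.47 in 3D replicates 1, 2 and 3. 2D replicate 3 was the highest, and the nearest arrays of the groups were 0.053 apart. The change was -0.38 ± 0.15 (SE, limma adjusted p = 0.189, 95% interval -0.73 to -0.020) and was -0.21 without 2D replicate 3 and -0.34 without 3D replicate 1. Its probe set was a dim one (percentile 31.5 of all genes by mean value), where RMA compresses differences. Of 8 markers of mature dendritic cells 6 were measured and 1 rose, the activation marker CD83 (0.48 ± 0.089, adjusted p = 0.0144). By limma 5.23% of all genes rose and 4.77% fell. Without 3D replicate 1, 1 of these markers rose and 0 fell, where 7.36% of all genes rose and 5.4% fell. The summed log2 level of the 6 markers ran from 27.6 to 29.0 on 2D arrays and from 28.7 to 29.7 on 3D arrays. CD1C lay at 3.57 and 3.67 and FLT3 at 3.66 and 3.56 in 2D and 3D.

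MCOLN1 encodes TRPML1, the calcium-permeable channel through which lysosomes release calcium. It read 7.50, 7.47 and 7.68 in 2D replicates 1, 2 and 3 and 7.95, 7.89 and 7.94 in 3D replicates 1, 2 and 3. The 3D arrays lay close together (SD 0.029) and all above the 2D arrays, by at least 0.21. The change was 0.38 ± 0.097 (SE, n = 3 per group, 95% interval 0.15 to 0.60), and its limma adjusted p of 0.0501 lay just outside the threshold. It passed in 4 of 15 alternative settings and was 0.37 without 3D replicate 1 (adjusted p = 0.0694). Of its paralogs, MCOLN3 gave 0.36 ± 0.14 (adjusted p = 0.159) and MCOLN2 gave -0.12 ± 0.19 (adjusted p = 0.789), with arrays of the groups overlapping for both. The span of MCOLN1 overlaps that of LOC105372261 in the RefSeq gene table. No value is given here for that gene, and whether the probes tell these transcripts apart is not known.

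SQSTM1 encodes p62, which links ubiquitinated cargo to the forming autophagosome and is itself degraded in the lysosome. It read 8.12, 8.22 and 8.13 in 2D and 8.26, 8.31 and 8.26 in 3D. The groups were 0.043 apart, and the change of 0.12 ± 0.087 was the smallest in size of the 8 (SE, limma adjusted p = 0.47, 95% interval -0.079 to 0.33). It was 0.13 without 3D replicate 1. The span of SQSTM1 overlaps those of MGAT4B and MRNIP in the RefSeq gene table. MRNIP gave 0.052 ± 0.15 (adjusted p = 0.889), and MGAT4B was not analysed here.

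**Figure D3:**
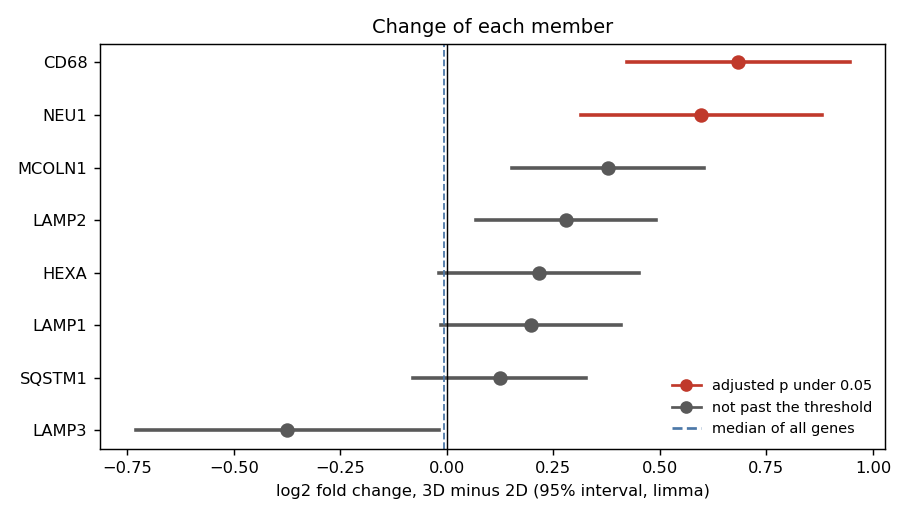
Log2 fold change of each member, 3D minus 2D, with its 95% interval from limma (n = 3 arrays per group); red marks an adjusted p under 0.05, and the dashed line is the median of all genes. The intervals of CD68, NEU1, MCOLN1 and LAMP2 lie above 0, that of LAMP3 below, and those of HEXA, LAMP1 and SQSTM1 include 0.

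The spread among replicates was larger in 2D than in 3D for 7 of the 8 members, LAMP2 being the exception, against 45.8% of all genes. Relative to each gene's own mean, the members averaged -0.17, -0.093 and -0.13 on 2D replicates 1, 2 and 3 and 0.15, 0.099 and 0.14 on 3D replicates 1, 2 and 3. 3D replicate 1 therefore did not fall between the groups for these genes. In 6 of the 8 members it was the 3D array farthest from the 2D mean.

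Other genes of the lysosome were read from fixed lists, without a test of the lists. Of 35 other lysosomal enzymes and sialidases, mostly glycosidases, sulfatases and lipid hydrolases, 14 were measured. By limma 4 of these rose, 0 fell and 10 did not pass, where 5.23% of all genes rose and 4.77% fell. At an unadjusted p under 0.05, 6 were higher and 0 lower, against 11.5% and 11.9% of all genes. Their median change was 0.16, against -0.0074 for all genes. The 4 that rose were TPP1, a lysosomal peptidase (0.48 ± 0.12 SE, n = 3, adjusted p = 0.0397), GALNS and ARSB, sulfatases of glycosaminoglycan breakdown (0.47 ± 0.11 and 0.43 ± 0.11), and the acid ceramidase gene ASAH1 (0.47 ± 0.11). GALNS read 9.26, 9.47 and 9.37 in 2D and 9.71, 9.87 and 9.94 in 3D, and ASAH1 read 9.41, 9.54 and 9.24 in 2D and 9.91, 9.80 and 9.91 in 3D. Every 3D array lay above every 2D array for these 4 genes, which their choice by passing limma makes likely. Of the 14 measured genes 8 were separated in either direction, NEU4 among them being lower in 3D, against 29.2% of all genes. GALNS, ARSB and TPP1 no longer passed when any 2D array or 3D replicate 2 or 3 was left out (largest adjusted p 0.171), nor did ASAH1 when any array other than 2D replicate 2 was left out (largest 0.115). Without 3D replicate 1, 3 of the list rose and 0 fell, where 7.36% of all genes rose and 5.4% fell. GLA, GAA and GLB1 were among the listed genes not analysed here.

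Of 28 other lysosomal membrane proteins and channels 13 were measured. By limma 3 of these rose, 0 fell and 10 did not pass, where 5.23% of all genes rose and 4.77% fell. At an unadjusted p under 0.05, 4 were higher and 0 lower, against 11.5% and 11.9% of all genes. Their median change was 0.16. LAPTM5 read 6.37, 6.05 and 6.18 in 2D and 8.43, 8.22 and 8.30 in 3D. This was a 4.33-fold rise (2.12 ± 0.12 SE, adjusted p = 8.6e-05), and it was the gene of these lists that changed most. TMEM175, encoding a lysosomal potassium and proton channel, rose by 0.70 ± 0.10 (adjusted p = 0.00499, and 0.101 with unequal variances), from 6.72, 6.71 and 6.62 in 2D to 7.28, 7.52 and 7.34 in 3D. OSTM1, encoding the partner subunit of the lysosomal chloride transporter CLC-7, rose by 0.51 ± 0.11 (adjusted p = 0.0241), a call that leaving out 2D replicate 1 or 3 or 3D replicate 2 or 3 ended (largest adjusted p 0.0875). Without 3D replicate 1, 4 of these genes rose and 0 fell, where 7.36% of all genes rose and 5.4% fell. Of 23 subunit genes of the vacuolar proton pump 0 had a named probe set here, so the pump was not analysed. Of 14 genes of mannose 6-phosphate tagging and lysosomal sorting 3 were measured and 0 passed (limma, also at an unadjusted p under 0.05 and with unequal variances), with a median of 0.20. NAGPA, the enzyme that uncovers the mannose 6-phosphate tag, had the largest estimate (0.22 ± 0.14, adjusted p = 0.414).

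The factors that bind the E-box did not pass. Of 20 genes of the MiT/TFE family and of lysosomal nutrient signalling 15 were measured and 0 passed by limma, with 1 called with unequal variances and a median of -0.059. At an unadjusted p under 0.05, 1 was higher and 3 were lower, a total near the 23.5% found over all genes. TFE3 read 8.66, 8.78 and 8.79 in 2D and 8.51, 8.39 and 8.45 in 3D, with no overlap and a change of -0.29 ± 0.092 (SE, adjusted p = 0.0979). Of 15 alternative settings, TFE3 passed in 1, limma with a trended robust variance (adjusted p = 0.0344). MITF gave -0.52 ± 0.15 (adjusted p = 0.0805), also without overlap, and passed without 2D replicate 3 (adjusted p = 0.0381). TFEB gave -0.057 ± 0.16 (adjusted p = 0.889), with overlapping arrays and a sign that turned without 2D replicate 2 or 3D replicate 2. GPNMB, a lysosomal glycoprotein gene that these factors are known to induce, had the largest estimate of the list, -0.62 ± 0.20 (adjusted p = 0.103).

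Of 37 autophagy receptors, ATG8 proteins and core autophagy genes 28 were measured. By limma 1 of these rose, 2 fell and 25 did not pass (median -0.016), so 10.7% passed, against 10% of all genes. At an unadjusted p under 0.05, 3 were higher and 8 were lower, against 11.5% and 11.9% of all genes. With unequal variances 0 of the list and 82 of all 14884 genes passed. OPTN, encoding the autophagy receptor optineurin, read 8.97, 8.90 and 9.14 in 2D and 8.33, 8.05 and 8.07 in 3D, a fall of 1.80-fold (-0.85 ± 0.12 SE, adjusted p = 0.00404, and 0.0829 with unequal variances). MAP1LC3C, encoding an ATG8 protein, fell by 0.91 ± 0.19 (adjusted p = 0.0219), a call that leaving out 2D replicate 3 or 3D replicate 2 ended (largest adjusted p 0.0814). TP53INP2, a regulator of autophagosome formation, rose by 0.74 ± 0.15 (adjusted p = 0.0224), a call that leaving out 2D replicate 1 or 3 or 3D replicate 2 or 3 ended (largest adjusted p 0.0783). Without 3D replicate 1, 1 gene of the list rose and 3 fell, where 7.36% of all genes rose and 5.4% fell. SQSTM1 also binds KEAP1, the inhibitor of NRF2. Of 11 genes of that pathway 6 were measured and 0 passed (limma, also at an unadjusted p under 0.05 and with unequal variances), with a median of -0.037. KEAP1 gave 0.064 ± 0.090 (adjusted p = 0.754), NFE2L2, which encodes NRF2, gave -0.030 ± 0.11 (adjusted p = 0.914), with a sign that turned without 2D replicate 3, and HMOX1 gave -0.27 ± 0.14 (adjusted p = 0.315).

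**Figure D4:**
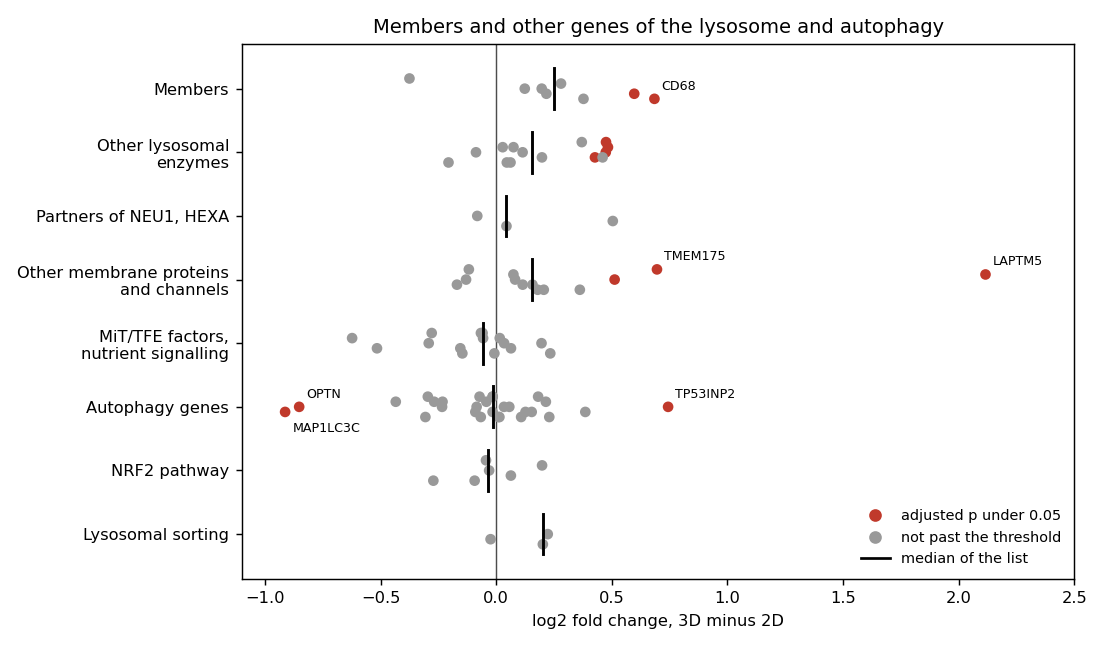
Log2 fold change, 3D minus 2D, of the 8 members and of the measured genes of each list (points), with the list's median as a black bar; red marks an adjusted p under 0.05 (limma). Red points of the lysosomal enzyme and membrane lists lie above 0, LAPTM5 farthest at 2.12, and the autophagy list has OPTN and MAP1LC3C below 0 and TP53INP2 above.

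**Figure D5:**
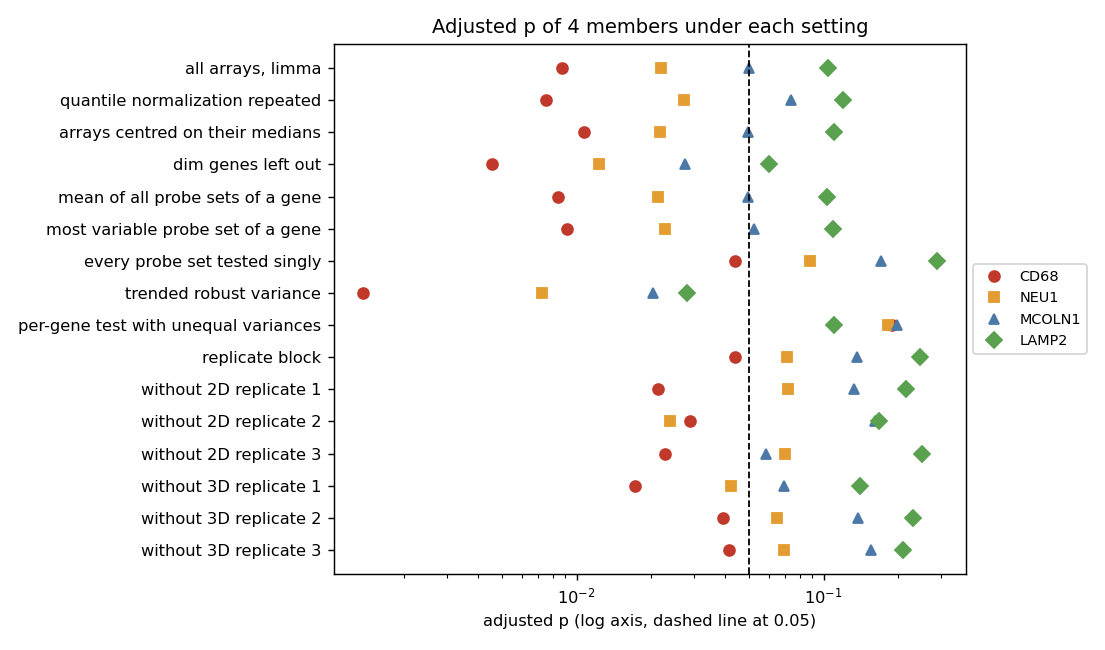
Adjusted p (log axis, dashed line at 0.05) of CD68, NEU1, MCOLN1 and LAMP2 with all arrays and under each of 15 alternative settings. CD68 lies left of the line except with unequal variances, NEU1 crosses it in 7 settings, MCOLN1 lies left of it in 4 and LAMP2 in 1.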

How the data were processed

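The authors deposited log2 values made with RMA, per the submitters' processing notes, with 53617 probe sets on each of 6 arrays. The version of RMA, how probes were grouped and any filters are not stated in the labels or the file. That the scale is log2 was read from the range of the values, up to 13.87. Per the labels, biotinylated material came from 100 ng of total RNA with a 3′ IVT kit, whereas the annotation belongs to a Gene ST array, a mismatch that was not resolved. RMA compresses changes of dim probe sets. Levels of different probe sets were compared only to choose a gene's probe set and to rank or filter dim genes. Of the probe sets 16098 carried 1 symbol and 37519 none; symbols were updated through a RefSeq table (GRCh38.p14, all 16098 found). Each of 14884 genes was represented by its probe set with the highest mean. Groups were compared with limma 3.58.1 in R 4.3.3 (group alone, moderated variances, two-sided), adjusted by Benjamini-Hochberg over all genes at 0.05. The fit was tested on simulated data with independent normal noise of the fitted size. Those data held no outlying array and no shared culture, so that test does not bear on either here. Precision is limited by the number of arrays.

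The members and lists were chosen with earlier results of these data known. Named were all 8 members, up to 4 passing genes of each list with the largest change, or the single largest where none passed, the partners of NEU1 and HEXA, and TFEB, TFE3, MITF, KEAP1 and NFE2L2. NEU2, NEU3, NEU4, MCOLN2, MCOLN3, MRNIP and the marker genes were added after their values were seen. The alternatives were another normalization, a filter on dim genes, other probe set choices, other variance models, the replicate number as a block and each array left out.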

Additional observations from a re-analysis of the deposited data

How the results depend on the processing

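All 8 members kept their direction under the 15 settings. With 1 probe set per member and groups that did not overlap, only the changes of normalization could have turned a direction. CD68 lost its call with unequal variances (0.68, adjusted p = 0.189) and kept it in the other 14. NEU1 lost it with every probe set tested singly (0.60, adjusted p = 0.0885), with unequal variances (0.60, 0.182) and with the replicate block (0.60, 0.0711), and without single arrays its change ran from 0.50 to 0.70. MCOLN1 passed with arrays centred on their medians (0.38, adjusted p = 0.0493), dim genes left out (0.38, 0.0274), the mean of all probe sets (0.38, 0.0495) and a trended robust variance (0.38, 0.0203). LAMP2 passed with the last of these (0.28, 0.028).

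The count of members called was 4 with the trended robust variance, 1 with every probe set tested singly, 0 with unequal variances, 1 with the replicate block and 1 to 2 without single arrays. Over the lists 10 of 82 genes were called, which is 12.2%, against 10% of all genes. This count was 3 with every probe set tested singly, 2 with unequal variances, 3 with the replicate block and 3 to 12 without single arrays. Of the 10 list genes called, LAPTM5 alone passed with unequal variances (adjusted p = 0.04). Over all 14884 genes, the count was 1488 in the report's fit, 1931 with the trended robust variance, 82 with unequal variances and 760 with the replicate block. It was 775 (without 3D replicate 3) to 1899 (without 3D replicate 1) without single arrays. With every probe set tested singly, 1284 of 53617 probe sets passed. The labels do not say that a replicate number is a shared batch, so the numbers were not taken to pair the samples. Same-numbered 2D and 3D arrays did not deviate together (correlations of -0.279, -0.0568 and -0.183 over 14884 genes, and 0 of 3 2D arrays correlated best with their own number). With deviations from means of 3 arrays, and 3D replicate 1 standing apart, this cannot show that pairing is absent. Without single arrays TFEB ran from -0.21 to 0.058 and NFE2L2 from -0.11 to 0.056. Why calls changed was not tested. Without detection calls no gene could be called absent.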

Other observations

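The E-box core CACGTG was also read across all measured genes. Of 10749 measured genes with a promoter window, 1187 (11%) held at least 1 core, and of these 63 rose (5.31%) and 49 fell (4.13%) by limma's adjusted p. Of the 9562 genes without a core 535 rose (5.6%) and 498 fell (5.21%). The median change was -0.011 with a core and -0.0075 without, and 0.041 for the 188 genes with TCACGTGA. Genes with 2 or more cores, as in LAMP1 and MCOLN1, numbered 111, of which 3 rose and 3 fell. Among the measured list genes with a window, a core was found in 3 of 3 sorting genes, 4 of 13 genes of the MiT/TFE list, 2 of 10 lysosomal enzymes (GALNS and ARSB), 1 of 2 partners of NEU1 and HEXA, 1 of 10 other membrane proteins and channels, 2 of 23 autophagy genes and 0 of 5 NRF2 pathway genes. These are descriptions without a test, and a match to these letters does not show that a factor binds there.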
